A study of Mus musculus with 28 samples.

Results

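The nuclear genes for the subunits of respiratory complexes II to V were followed in the RNA of FACS-isolated hippocampal microglia. They were chosen by gene name alone, as *Sdha*, *Sdhb*, *Sdhc*, *Sdhd*, *Cyc1* and the symbols that begin with Uqcr, Cox4 to Cox8 or Atp5. Only lower-case letters and digits could follow these beginnings, so names with a hyphen were left out. Of the 48587 genes of the count table, 48 carried such a symbol, and the 42 with a mean of at least 1 CPM (reads of a gene scaled to an equal library size) over all 28 libraries are described here. They comprise 4 genes of complex II, 9 of complex III, 13 of complex IV and 16 of complex V. The name rule also takes in *Atp5s* and *Atp5sl*, which RefSeq calls *Dmac2l* and *Dmac2* and which encode factors that act beside the enzyme or in assembly rather than core subunits.

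The inner mitochondrial membrane carries the respiratory chain. Complex II (succinate dehydrogenase) passes electrons from succinate to ubiquinone, complex III (cytochrome bc1) passes them on to cytochrome c, and complex IV (cytochrome c oxidase) transfers them to oxygen. The proton gradient that complexes III and IV help to build drives complex V, the ATP synthase, and microglia that become activated are known to change how they share ATP production between this pathway and glycolysis.

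Each library came from the CD11b+CD45low microglia of 1 male mouse aged 16 weeks. The study's sort also took out cells that bound antibodies to T and B cell markers, Ly6C or Ly6G, a gate that would remove neutrophils. WT mice comprised 5 SPF, 4 GF and 5 ABX animals, and 5xFAD mice comprised 3 SPF, 5 GF and 6 ABX animals. SPF mice carried a specific pathogen free flora, GF mice were germ-free, and ABX mice were SPF mice that drank vancomycin, cefoxitin, gentamicin and metronidazole for 8 weeks. 5xFAD mice, a model of Alzheimer's disease, are heterozygous for transgenes that the neuronal Thy-1 promoter drives, so the microglia themselves are not the cells in which the transgenes are meant to be active. All groups are on the C57BL/6J background, and the WT mice are littermates without the transgenes. GF mice came from another animal facility than the SPF and ABX mice, and GF housing and origin cannot be told apart.

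The libraries held 14441610 to 29977395 reads in genes. The 8 microglial markers summed to 45200 to 64600 CPM of the library total in every library, against 155 to 328 CPM for 6 astrocyte, 153 to 222 for 6 oligodendrocyte, 9.42 to 54.4 for 6 endothelial and 22.8 to 53 for 5 B cell markers. Neuronal, T cell and erythrocyte markers reached at most 17.5, 2.96 and 0.901 CPM. Some of these sums rest mainly on 1 gene. *Slc1a3* held 151 to 324 CPM, and no other astrocyte marker exceeded 16.4 CPM. *Cd79b* held 22.5 to 52.7 CPM, and no other B cell marker exceeded 0.59 CPM. *Pecam1* held 5.36 to 52 CPM, and no other endothelial marker exceeded 4.84 CPM. The microglial sum was lower without overlap in 5xFAD than in WT mice under each housing condition. It was 48200 to 51700 against 58200 to 63000 CPM in SPF, 45200 to 55300 against 58500 to 61500 CPM in GF and 48800 to 55900 against 57800 to 64600 CPM in ABX mice, and its part in the results was not tested. Descriptions of the libraries follow 3 numbering styles. The first covers every SPF WT and ABX WT mouse. The second covers the 3 SPF 5xFAD mice and FAD_ABX_1151, and the third covers the remaining ABX 5xFAD animals together with both GF groups. The same 4 libraries of the second style held 56.1 to 225 CPM of 6 neutrophil markers (here and below CPM with TMM scaling), where every other 5xFAD library held at most 0.289 CPM. Of these markers *Ngp*, *S100a8*, *S100a9* and *Camp* reached 92.8, 50.9, 49.3 and 27.4 CPM of the library total. *Ly6g* and *Retnlg* stayed at or below 0.266 and 0.148 CPM in every library. As these are bulk samples, fewer cells of a type and less RNA per cell cannot be told apart, and the p-values measure the spread between these mice. GF 5xFAD and GF WT mice share 1 style, as do SPF WT and ABX WT mice, and GF and ABX 5xFAD mice share it but for FAD_ABX_1151. Style and group cannot be told apart in the genotype comparisons in SPF and ABX mice, in GF against SPF or ABX WT mice, in GF against SPF 5xFAD mice and in the interactions, which draw on these groups. ABX and SPF 5xFAD mice share a style through FAD_ABX_1151 alone. The alternative fit with a style term sets the second style against the other 2 and does not part the first from the third. The library FAD_GF_201 is 5xFAD by its title and genotype but WT by its description, and was used as 5xFAD.

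Levels of the subunit genes were compared per kilobase of exon, since a longer transcript yields more reads. The highest was *Cox6b1*, a small subunit on the outer face of complex IV, with a mean of 169 CPM per kilobase over the 28 mice. The lowest member was *Atp5g2*, which encodes the c subunit of the ATP synthase ring, at 0.826 CPM per kilobase. Medians per kilobase were 69.7 CPM for complex II, 40.9 for III, 30.6 for IV and 26.4 for V. The spread within a complex was narrow in complex III, at 2.91-fold between its lowest and highest gene, and wide in complexes IV and V, at 166-fold and 165-fold. The plot of levels per length shows that these wide spreads come from a few isoform genes near the minimum.

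**Figure D1:**
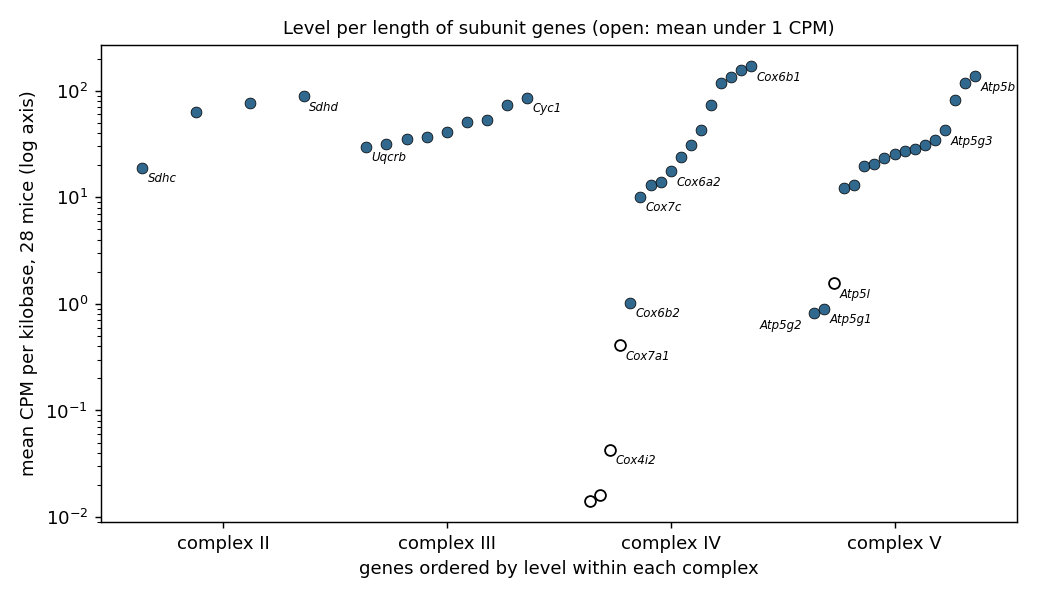
Mean CPM per kilobase of exon over 28 mice on a log axis, 1 point per subunit gene, ordered by level within each complex. Filled points are the 42 genes with a mean of at least 1 CPM and open points are genes under it that had reads; *Cox6b1* is highest at 169 and *Atp5g2* is the lowest filled point at 0.826.

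Several subunits have tissue-specific isoforms, and in each such set 1 gene held most of the reads. *Cox4i1*, the ubiquitous isoform of subunit IV, made up 99.8 to 100% of the *Cox4i1* and *Cox4i2* level per kilobase in every mouse. *Cox6b1* made up at least 98.6% beside *Cox6b2*, an isoform of testis, which at a mean of 1.13 CPM stood just over the minimum. *Cox8a* held at least 99.6% beside *Cox8b* and *Cox8c*, isoforms of muscle and testis, of which *Cox8c* had 0 reads in all 28 libraries. The muscle isoform *Cox7a1*, at 0.216 CPM, and the complex V gene *Atp5l*, at 0.789 CPM, were the nearest under the minimum. *Atp5g3* held 92.6 to 98.4% of the level of the 3 c-subunit genes, which encode the same mature protein.

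Some members share sequence with other genes. Transcripts were cut into windows of 50 bases, the read length, and compared with all other annotated genes. *Atp5o* shared 41.1% of its windows with another gene, *Atp5g2* 38.3%, *Uqcrb* 25.5%, *Cox7c* 22.1% and *Atp5h* 19.9%. Reads from such windows can be lost or split, so the absolute levels of these genes are uncertain. Whether sharing lowered a count was not tested. At most 10% of windows were shared by 31 members, and *Atp5sl* had no value. Of the 31, 25 were called higher in GF 5xFAD than in GF WT mice in the test described below, against 9.43% of all genes tested.

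Promoter windows of 250 bases before to 50 bases after the transcription start were taken from RefSeq (GRCm38.p6) for 33 of the 42 members. No window is given for *Atp5a1*, *Cox4i1*, *Cox6a2*, *Cox6c*, *Cyc1*, *Sdhc*, *Uqcrb*, *Uqcrc2* and *Uqcrq*. They were searched on both strands for the exact letters of 4 motifs. The palindrome bound by NRF1, a known regulator of respiratory genes, whose letters stand in capitals in the *Uqcrc1* window printed next, occurred in 4 of the 37 windows of these members (10.8%) against 0.971% of all 32851 mouse windows of this length. CCGGAAG, the core of ETS factors such as GABP, occurred in 11 of the 37 (29.7%) against 8.86% of all windows. AAGATGGCG, a YY1 motif, occurred in 4 windows of 3 members (10.8%) against 1.4%. GAGGAAGT, a motif of the myeloid factor PU.1 that overlaps the ETS core in its GGAAG letters, occurred in 1 window, that of *Atp5j* (2.7%), against 3.2%. A letter match is a description of the sequence and does not show binding.

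The windows of 6 members follow, 5′ to 3′ on the strand of the gene, with motif matches in capitals. They were chosen to show both NRF1 and ETS matches (*Cox6a1* and *Atp5k*), NRF1 alone (*Uqcrc1*), ETS alone (*Sdhb* and *Cox8a*) and no match at all (*Uqcr10*). They lie at chr4:140961021-140961320 on the plus strand, chr9:108936398-108936697 on the plus strand, and chr11:4704295-4704594, chr5:115348909-115349208, chr19:7217567-7217866 and chr5:108434350-108434649 on the minus strand.
Sdhb: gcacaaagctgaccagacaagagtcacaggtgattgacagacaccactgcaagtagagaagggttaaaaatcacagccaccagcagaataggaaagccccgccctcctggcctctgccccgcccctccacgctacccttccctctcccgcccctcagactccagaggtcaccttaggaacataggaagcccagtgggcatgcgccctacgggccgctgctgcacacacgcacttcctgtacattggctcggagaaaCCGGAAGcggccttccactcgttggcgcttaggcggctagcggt
Uqcrc1: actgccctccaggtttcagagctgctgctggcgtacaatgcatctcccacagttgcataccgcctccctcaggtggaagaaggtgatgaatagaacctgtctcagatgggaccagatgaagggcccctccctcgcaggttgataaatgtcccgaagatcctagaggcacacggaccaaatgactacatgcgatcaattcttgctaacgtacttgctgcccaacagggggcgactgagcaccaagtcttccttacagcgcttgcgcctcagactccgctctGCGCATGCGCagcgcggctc
Uqcr10: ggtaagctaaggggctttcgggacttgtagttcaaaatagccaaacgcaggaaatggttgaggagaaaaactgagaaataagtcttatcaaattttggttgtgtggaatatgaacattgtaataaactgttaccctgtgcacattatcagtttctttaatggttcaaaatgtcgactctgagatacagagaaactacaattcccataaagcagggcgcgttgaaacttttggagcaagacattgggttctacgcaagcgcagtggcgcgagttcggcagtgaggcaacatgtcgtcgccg
Cox6a1: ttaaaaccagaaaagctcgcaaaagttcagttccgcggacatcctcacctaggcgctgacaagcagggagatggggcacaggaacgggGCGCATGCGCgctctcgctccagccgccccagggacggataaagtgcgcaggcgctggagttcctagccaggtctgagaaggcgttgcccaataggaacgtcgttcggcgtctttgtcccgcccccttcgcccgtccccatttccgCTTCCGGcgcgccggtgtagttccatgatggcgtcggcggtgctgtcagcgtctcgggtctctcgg
Cox8a: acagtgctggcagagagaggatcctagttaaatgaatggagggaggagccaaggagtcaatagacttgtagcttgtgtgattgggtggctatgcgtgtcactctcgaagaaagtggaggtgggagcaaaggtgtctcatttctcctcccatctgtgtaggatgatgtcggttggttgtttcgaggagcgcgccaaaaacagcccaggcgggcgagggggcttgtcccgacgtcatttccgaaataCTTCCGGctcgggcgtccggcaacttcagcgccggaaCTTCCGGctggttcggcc
Atp5k: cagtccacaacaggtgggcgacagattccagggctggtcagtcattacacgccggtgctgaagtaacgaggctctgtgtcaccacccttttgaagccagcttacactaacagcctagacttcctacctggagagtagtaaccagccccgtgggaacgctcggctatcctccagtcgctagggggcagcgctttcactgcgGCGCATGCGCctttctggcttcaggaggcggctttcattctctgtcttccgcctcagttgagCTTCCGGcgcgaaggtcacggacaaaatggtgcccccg
Both NRF1 and ETS letters stand in the windows of *Cox6a1* and *Atp5k*, and *Cox8a* carries 2 ETS matches around its start.

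Averaged over the genes of a complex, the subunits were at their highest in GF 5xFAD mice. Complex IV genes averaged 5.6 ± 0.21 log2 CPM (SD, n = 5) in GF 5xFAD mice, against 4.57 ± 0.17 (n = 4) in GF WT, 5.05 ± 0.14 (n = 3) in SPF 5xFAD and 4.96 ± 0.21 (n = 6) in ABX 5xFAD mice. *Cox6a2*, described below, weighs on this mean. The difference between 5xFAD and WT mice in the complex IV mean was 1.04 in GF, 0.53 in SPF and 0.3 in ABX mice, and without *Cox6a2* it was 0.77, 0.28 and 0.09. Complex III genes averaged 6.34 ± 0.16 in GF 5xFAD mice, where the other 5 groups lay between 5.67 and 5.87. For complex V the mean was 5.91 ± 0.12 in GF 5xFAD mice against 5.42 to 5.55 elsewhere, and for complex II it was 7.31 ± 0.07 against 6.89 to 7.02. The GF 5xFAD group had the highest mean for 39 of the 42 genes. Among its 5 mice, FAD_GF_201 was the lowest for 29 of the 42.

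**Figure D2:**
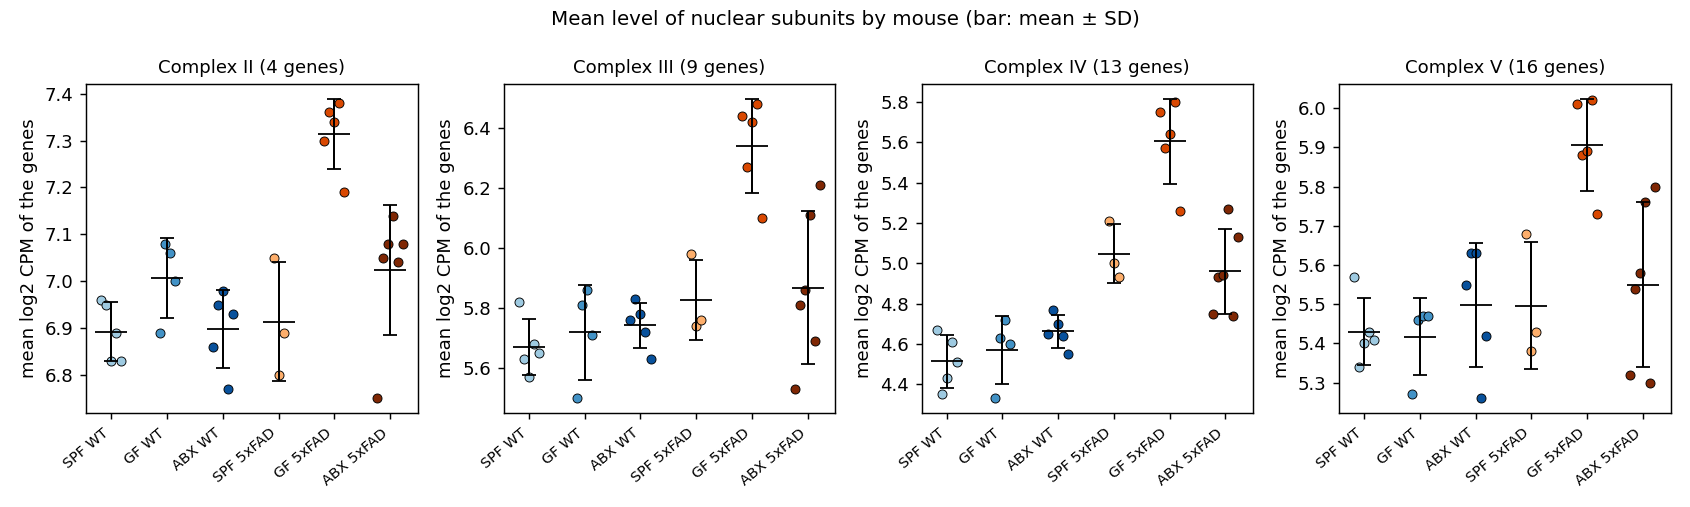
Mean log2 CPM of the genes of each complex (y axis) in each of 28 mice, by group (x axis); the bars give mean ± SD. The GF 5xFAD group has the highest mean in all 4 panels; its complex IV values run from 5.26, that of FAD_GF_201, to 5.8, and FAD_ABX_1455, at 5.27, lies within them.

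The groups were compared with edgeR's quasi-likelihood test over all 15298 genes that passed the filter on low counts, which all 42 members did. A gene is called at an adjusted p (Benjamini-Hochberg over all genes tested) under 0.05, and fold changes are on the log2 scale with their SE. The first question was how the genotype changed the subunit genes under each housing condition. In SPF mice 3 of 42 members were called, all higher in 5xFAD and all in complex IV, where 4.57% of all genes tested were called and 3.73% were called higher. In GF mice 30 members were called, all higher, against 15.6% of all genes called and 9.43% called higher. In ABX mice 6 members were called, all higher, against 14.4% called and 9.45% called higher. The median log2 fold change of the 42 members was 0.116 in SPF mice, 0.579 in GF mice and 0.0972 in ABX mice, beside medians near 0 of all genes tested (-0.027, -0.0255 and -0.0127). Leaving out 1 mouse moved the SPF median between 0.0542, without FAD_SPF_1144, and 0.187, without FAD_SPF_1148, and the label style term gave 0.455. The ABX median ran from 0.0253, without FAD_ABX_1455, to 0.152, without FAD_ABX_1460, and also moved by more than 1.5 times without WT_ABX_911, WT_ABX_932 or FAD_ABX_1482. Scaled by library size alone, the SPF and ABX medians were 0.0678 and 0.0186, beside all-gene medians of -0.0731 and -0.0893. With voomWithQualityWeights they were 0.0817 and 0.0509, beside -0.0135 and -0.0337.

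*Cox6a2* changed most in each of these comparisons. It encodes the isoform of complex IV subunit VIa that is known from heart and skeletal muscle, and lies on chromosome 7 (chr7:128205435-128206387, minus strand, GRCm38). SPF WT mice had 0.979, 1.19, 1.23, 1.98 and 1.17 CPM, and SPF 5xFAD mice 17.5, 13.5 and 15.4 CPM. GF WT mice had 1.92, 1.18, 2.31 and 2.13 CPM, and GF 5xFAD mice 38.1, 37.1, 43, 45.6 and 21.4 CPM. ABX WT mice had 1.37, 2.31, 1.78, 1.74 and 1.52 CPM, and ABX 5xFAD mice ranged from 9.12 over a median of 13.1 to 18.9 CPM. No 5xFAD mouse overlapped any WT mouse, and the mouse with the conflicting label, at 21.4 CPM, stood with the 5xFAD mice. The log2 fold change was 3.56 ± 0.272 (adjusted p = 1.18e-10) in SPF, 4.29 ± 0.284 (adjusted p = 4.68e-12) in GF and 2.97 ± 0.245 (adjusted p = 4.63e-10) in ABX mice.

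*Cox6a2* lies inside the span of *Itgad*, an integrin gene on the opposite strand, and the libraries do not keep the strand. *Itgad* itself had at most 27 reads in a library, against 19 to 1052 for *Cox6a2*. The neighbouring *Itgax*, which encodes CD11c and is known to rise in microglia around plaques, had log2 fold changes of 3.57 ± 0.284, 3.87 ± 0.298 and 3.13 ± 0.261 in SPF, GF and ABX mice (adjusted p = 3.05e-10, 7.11e-11 and 5.14e-10). Per kilobase, *Cox6a2* made up 1.33 to 2.96% of the subunit VIa genes in WT mice. Its share was 11.3 to 12.9% in SPF 5xFAD, 15 to 20.9% in GF 5xFAD and 7.73 to 14.1% in ABX 5xFAD mice, so *Cox6a1* remained the main VIa gene in every mouse.

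*Cox6a1*, the ubiquitous isoform of the same subunit, rose too, from a higher level. It stood at 74.7, 64, 76.4, 80.6 and 73 CPM in SPF WT and at 122, 109 and 116 CPM in SPF 5xFAD mice. It stood at 65.1, 82.4, 87.1 and 80.6 CPM in GF WT and at 223, 193, 167, 213 and 120 CPM in GF 5xFAD mice. ABX WT mice had 69.6, 83.3, 81.9, 74.4 and 72.1 CPM, and ABX 5xFAD mice 90.1 to 158 CPM with a median of 108. The genotypes did not overlap under any condition, with log2 fold changes of 0.65 ± 0.167 (adjusted p = 0.0173), 1.22 ± 0.16 (adjusted p = 1.87e-06) and 0.63 ± 0.142 (adjusted p = 0.00257) in SPF, GF and ABX mice.

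*Cox4i1*, subunit IV of the oxidase, had 152, 126, 127, 145 and 137 CPM in SPF WT and 253, 192 and 193 CPM in SPF 5xFAD mice. GF WT mice had 132, 176, 189 and 169 CPM and GF 5xFAD mice 373, 364, 402, 407 and 278 CPM. ABX WT mice had 148, 142, 137, 141 and 143 CPM, and ABX 5xFAD mice 147 to 295 CPM with a median of 221. The groups were apart except in ABX mice, where 1 5xFAD mouse fell within the WT range. The log2 fold change was 0.63 ± 0.152 (adjusted p = 0.0102), 1.13 ± 0.145 (adjusted p = 1.14e-06) and 0.66 ± 0.129 (adjusted p = 0.000598).

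These 3 genes were the calls in SPF mice in the main edgeR fit over all groups. With voomWithQualityWeights 7 members and 14.1% of all genes were called, and with the 2 groups alone 7 members and 9.71%. With the label style term 2 members and 1.7% of all genes were called. Without FAD_SPF_1144 only *Cox6a2* was called, a count of 1, with 2.73% of all genes called. In the 3 SPF 5xFAD mice the neutrophil markers summed to 225, 146 and 56.1 CPM, against 0 to 0.168 CPM in the SPF WT mice. Border-associated macrophage markers summed to 15.6, 28.1 and 24.7 CPM against 3.38 to 7.65 CPM, also without overlap. Endothelial markers were lower without overlap, at 24.1 to 29.9 against 31.3 to 44.2 CPM of the library total, and the part of these 3 lists in the result was not tested.

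**Figure D3:**
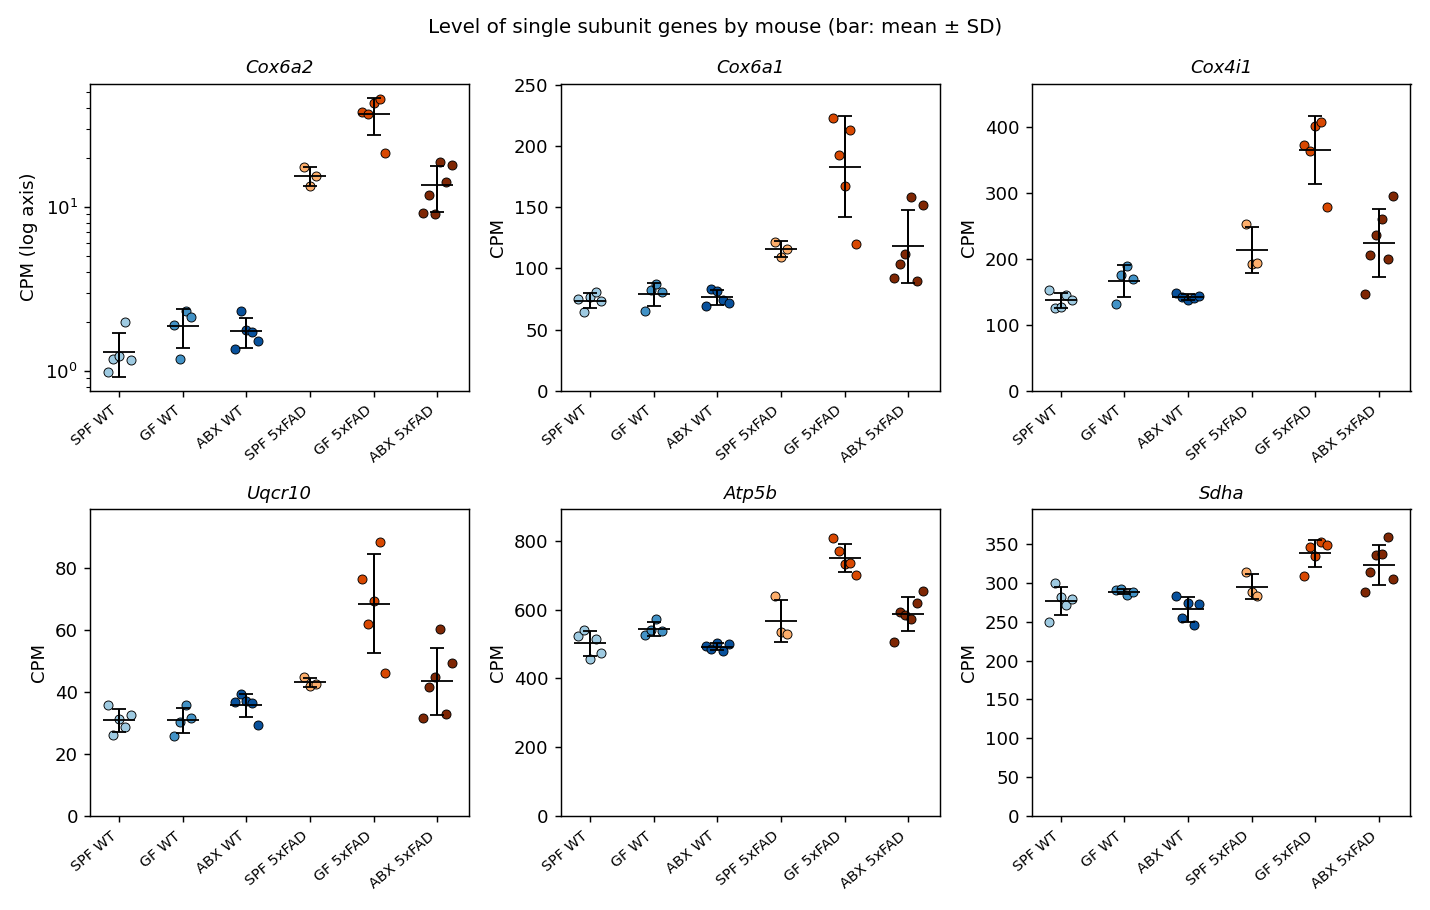
CPM (y axis, TMM-scaled) of 6 subunit genes in each of 28 mice by group (x axis), with mean ± SD; the *Cox6a2* axis is logarithmic and the others start at 0. *Cox6a2* separates 9.12 CPM or more in all 5xFAD mice from at most 2.31 CPM in all WT mice, and the other 5 genes have their highest group mean in GF 5xFAD mice.

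In GF mice the calls covered all 4 complexes, with 3 of 4 members in complex II, 5 of 9 in III, 11 of 13 in IV and 11 of 16 in V. For 33 of the 42 members every GF 5xFAD mouse lay above every GF WT mouse, which was so for 9.14% of all genes tested. Astrocyte markers, mostly *Slc1a3*, summed to 155 to 189 CPM of the library total in GF 5xFAD mice, below the 203 to 328 CPM of the other 5 groups. Endothelial markers summed to 9.42 to 21.4 against 28.6 to 35.9 CPM in GF WT mice. The T cell list was at 0.885 to 2.96 against at most 0.635 CPM. In all GF 5xFAD mice 4 of its 5 genes had 0 reads, so this sum is *Lck* alone. The part of these lists in the result was not tested. The 3 largest rises were those of *Cox6a2*, *Cox6a1* and *Uqcr10*. Without FAD_GF_201, 31 members were called, against 18.1% of all genes, and the median log2 fold change was 0.659.

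Complex II genes had small log2 fold changes, from 0.23 to 0.37. *Sdha*, the flavoprotein that oxidises succinate, had 290, 292, 284 and 288 CPM in GF WT and 309, 345, 334, 352 and 348 CPM in GF 5xFAD mice. *Sdhb*, the iron-sulfur subunit, had 123.7, 155, 149.2 and 145.8 CPM in GF WT and 195.1, 198.7, 188.2, 181.3 and 162.1 CPM in GF 5xFAD mice. The membrane anchor *Sdhd* had 105, 128, 117 and 122 CPM against 138, 135, 157, 147 and 146 CPM. None of these 3 genes overlapped between the genotypes, with log2 fold changes of 0.23 ± 0.0711 (adjusted p = 0.0281), 0.37 ± 0.0997 (adjusted p = 0.0102) and 0.29 ± 0.0936 (adjusted p = 0.0302). The call of *Sdhd* was lost with the length offsets described below. *Sdhc*, the other anchor, had a log2 fold change of 0.34 ± 0.129 and missed the threshold (adjusted p = 0.0773), and FAD_GF_201, at 55 CPM, lay among the WT mice.

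Within complex III 4 members were not called in GF mice. They are the core proteins *Uqcrc1* and *Uqcrc2*, the Rieske iron-sulfur protein *Uqcrfs1* and cytochrome c1, *Cyc1*, with log2 fold changes of 0.23 ± 0.0991, 0.19 ± 0.11, 0.27 ± 0.112 and 0.21 ± 0.103 (adjusted p = 0.125, 0.26, 0.101 and 0.183). The 5 small accessory subunits were all called, *Uqcr10* at 1.15 ± 0.17 (adjusted p = 1.26e-05), *Uqcr11* at 1.14 ± 0.192, *Uqcrh* at 1.04 ± 0.177, *Uqcrq* at 0.92 ± 0.176 and *Uqcrb* at 0.48 ± 0.166 (adjusted p = 0.0478). The call of *Uqcrb* was lost with the length offsets described below. *Uqcr10* had 26.1, 30.4, 35.8 and 31.6 CPM in GF WT and 76.7, 62.1, 69.5, 88.6 and 46.2 CPM in GF 5xFAD mice. *Cyc1* had 99.4, 114, 111 and 116 CPM against 127, 140, 130, 126 and 113 CPM, and here FAD_GF_201 lay inside the WT range. The 4 members not called have exon lengths of 1194 to 4135 bases, and the 5 small accessory subunits have 584 to 1831 bases. The difference between the 4 and the 5 was not tested.

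In complex IV only *Cox7c* and *Cox6b2* were not called in GF mice, with log2 fold changes of 0.06 ± 0.164 and 0.2 ± 0.42. *Cox8a*, at 1.1 ± 0.172, *Cox6b1*, at 0.96 ± 0.145, and *Cox7b*, at 0.94 ± 0.166, followed *Cox6a1* and *Cox4i1* (adjusted p = 2.58e-05, 1.64e-05 and 0.000133). *Cox6c*, a small membrane subunit, went from 32, 38.5, 40.8 and 31.4 CPM to 77.8, 57.6, 58.3, 78.8 and 51.4 CPM, a log2 fold change of 0.86 ± 0.171 (adjusted p = 0.000588). *Cox5a* and *Cox5b*, which sit on the matrix side, rose by 0.54 ± 0.157 (adjusted p = 0.0179) and 0.72 ± 0.159 (adjusted p = 0.00163), and the call of *Cox5a* was lost with the length offsets described below. *Cox7a2l*, a relative of *Cox7a2*, rose by 0.64 ± 0.152 (adjusted p = 0.00343) and *Cox7a2* by 0.91 ± 0.156 (adjusted p = 8.88e-05), whereas *Cox7a1* stayed under the minimum in all groups.

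In complex V genes of the catalytic head, the central stalk and part of the peripheral stalk were called. *Atp5b*, the catalytic beta subunit and the gene with the highest CPM of the 42, had 526, 541, 573 and 538 CPM in GF WT and 807, 771, 733, 735 and 699 CPM in GF 5xFAD mice (0.46 ± 0.0735, adjusted p = 3.66e-05). *Atp5a1*, the alpha subunit, had 359, 350, 347 and 321 CPM against 474, 421, 399, 394 and 415 CPM (0.29 ± 0.0752, adjusted p = 0.00727). Neither gene overlapped between the genotypes. The central stalk subunits gamma (*Atp5c1*, 0.52 ± 0.113), delta (*Atp5d*, 0.61 ± 0.124) and epsilon (*Atp5e*, 1.07 ± 0.18) were called, as was *Atp5o*, the subunit that ties the peripheral stalk to the head (0.68 ± 0.144, adjusted p = 0.00122). *Atp5f1*, subunit b of the peripheral stalk, was not called (0.27 ± 0.114, adjusted p = 0.116). *Atp5k*, a membrane subunit at the dimer interface, had 10.8, 14.3, 18 and 16.1 CPM in GF WT and 32.4, 25.4, 25.6, 35.7 and 20.1 CPM in GF 5xFAD mice (0.91 ± 0.197, adjusted p = 0.00143). Of the c-subunit genes *Atp5g3* was called (0.54 ± 0.159, adjusted p = 0.0179), and *Atp5g1* and *Atp5g2* were not, at 0.32 ± 0.278 and 0.93 ± 0.414 (adjusted p = 0.5 and 0.137). The only negative log2 fold changes among the 42 were -0.29 ± 0.148 for *Atp5s* and -0.28 ± 0.124 for *Atp5sl*, neither of them called.

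Of the 33 members with a promoter window, 15 held at least 1 of the 4 motifs. Of these 15, 12 were called in GF mice, where 15.6% of all genes tested were called, and the median log2 fold change of the 15 was 0.91. Of the 18 without a match 12 were called, with a median of 0.53, and *Uqcr10*, whose window is printed above without capitals, was among the largest rises. These medians are a description and were not tested.

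**Figure D4:**
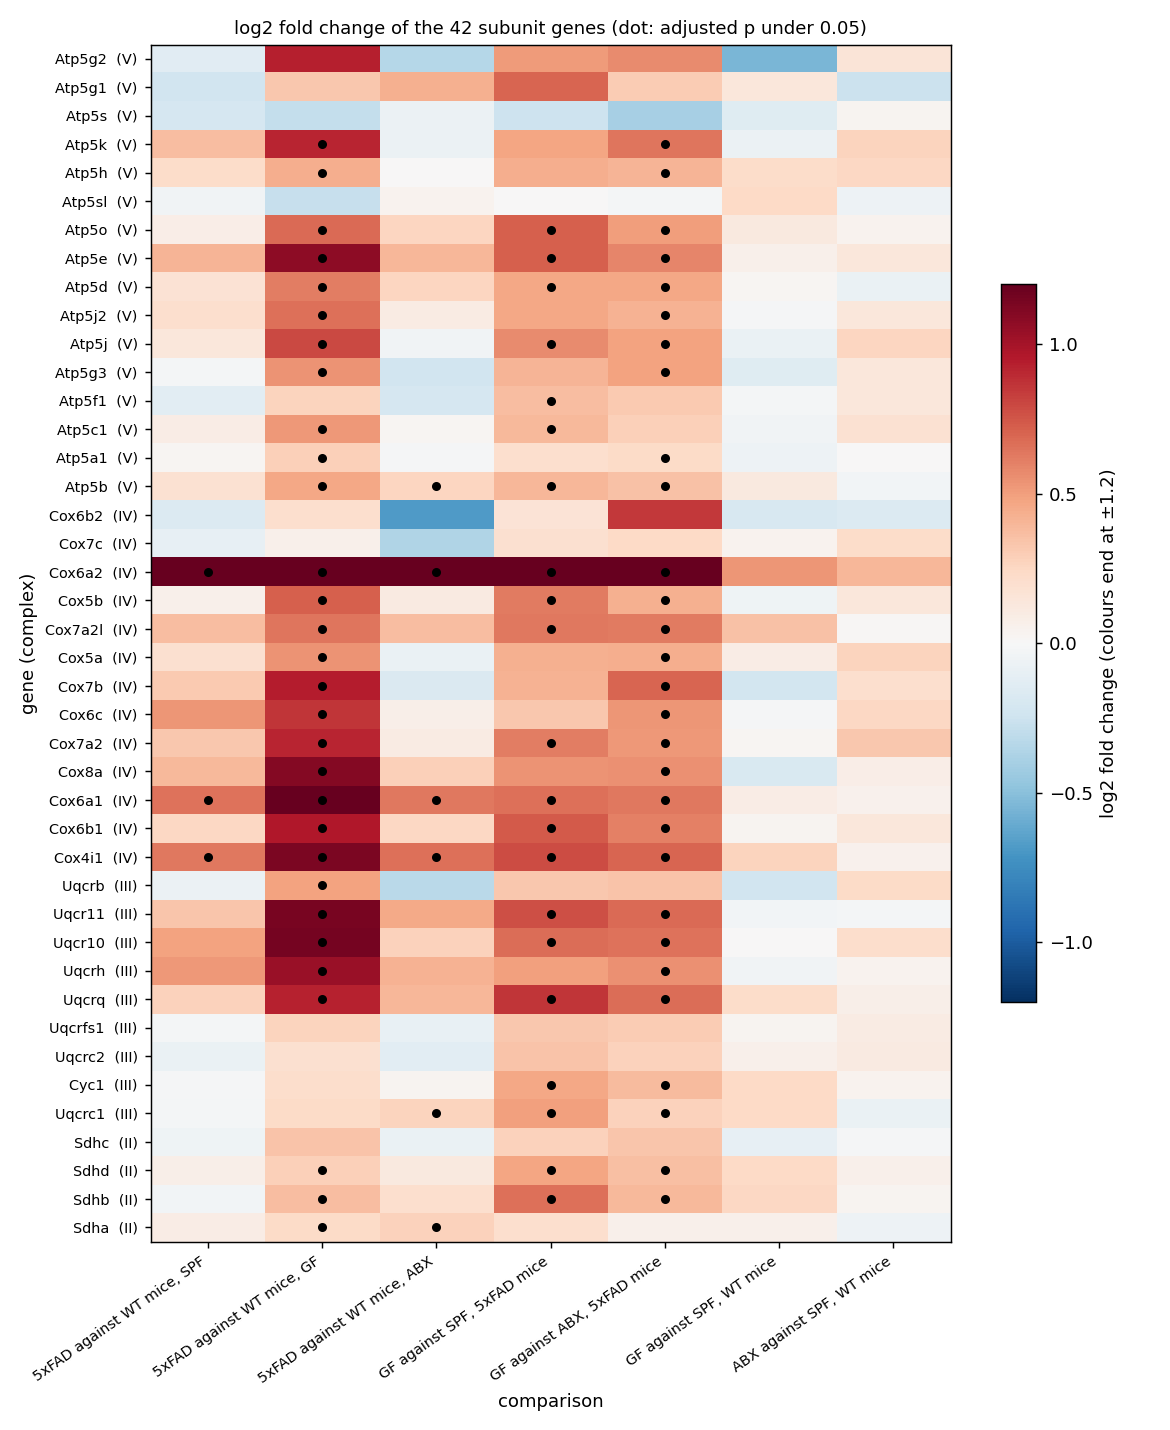
Log2 fold change of the 42 genes (rows, with their complex) in 7 comparisons (columns); red is higher in the group named first, colours end at 1.2 in either direction, and dots mark adjusted p under 0.05. The columns of GF 5xFAD mice hold 30 dots against GF WT, 22 against SPF 5xFAD and 29 against ABX 5xFAD mice, and the 2 WT columns hold 0.

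In ABX mice *Sdha*, *Uqcrc1* and *Atp5b* joined the 3 complex IV genes. *Sdha* had 283, 254, 274, 245 and 272 CPM in ABX WT and 288 to 359 CPM, with a median of 324, in ABX 5xFAD mice, without overlap (0.28 ± 0.0642, adjusted p = 0.00294). *Atp5b* had 493, 485, 502, 480 and 501 CPM against 506 to 655 CPM with a median of 588, again without overlap (0.26 ± 0.066, adjusted p = 0.00796). *Uqcrc1* had 180.5, 179.2, 151.6, 186 and 186 CPM against 162 to 271 CPM with a median of 209, and the groups overlapped (0.27 ± 0.0896, adjusted p = 0.0393). Without FAD_ABX_1151, the lowest of its group for complexes II and III, 12 members were called against 17.7% of all genes. Border-associated macrophage markers summed to 32.2 to 247 CPM in the ABX 5xFAD and at most 5.83 CPM in the ABX WT mice, and their part in the result was not tested.

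The next question was what the absence of the flora did within a genotype. In WT mice GF housing called 0 members against SPF with edgeR, where 1.62% of all genes tested were called, and voomWithQualityWeights called 5 members and 10.7% of all genes. An unadjusted p under 0.05 was found for 5 members, against 16.6% of all genes. The median log2 fold change of the 42 was 0.0248, and leaving out 1 mouse moved it between -0.0309, without WT_GF_230, and 0.0763, without WT_GF_199. Its sign also turned without WT_SPF_925. Antibiotics called 0 members against SPF in WT mice, where 0% of all genes were called, with a median of 0.0896. Here 2 members were under an unadjusted p of 0.05, against 4.49% of all genes. In 5xFAD mice antibiotics also called 0 members with edgeR, with 0% of all genes called. There 1 member was under an unadjusted p of 0.05, against 7.09% of all genes. Between GF and ABX WT mice 1 member was called, against 6.88% of all genes called and 4.48% called higher. This was *Uqcrc1*, with 225.6, 202.1, 240.5 and 214.9 CPM in GF WT against 180.5, 179.2, 151.6, 186 and 186 CPM in ABX WT mice, without overlap (0.32 ± 0.0986, adjusted p = 0.0453). Border-associated macrophage markers summed to 10.5 to 41.2 CPM in GF WT against 3.57 to 5.83 CPM in ABX WT and 3.38 to 7.65 CPM in SPF WT mice. Oligodendrocyte markers summed to 174 to 189 in GF WT against 163 to 167 CPM of the library total in ABX WT mice, and the part of both lists in the results was not tested. The count was 2 without WT_ABX_932, and it was 0 without any 1 of WT_SPF_925, WT_SPF_928, the 4 GF WT mice, WT_ABX_909, WT_ABX_910, WT_ABX_911, FAD_SPF_1144, FAD_SPF_1148, FAD_GF_182, FAD_GF_184, FAD_GF_185, FAD_GF_201 and FAD_ABX_1452.

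GF 5xFAD mice stood above SPF 5xFAD mice for 22 of 42 members, where 12.8% of all genes were called and 6.97% were called higher, and the median log2 fold change was 0.466. The calls comprised 2 genes of complex II, 5 of III, 7 of IV and 8 of V, and for 24 members the groups did not overlap, against 10.4% of all genes tested. The largest rises were *Cox6a2* at 1.26 ± 0.264 (adjusted p = 0.00332), *Uqcrq* at 0.86 ± 0.193 (adjusted p = 0.00493) and *Cox4i1* at 0.78 ± 0.158 (adjusted p = 0.00293). *Uqcrq*, which helps to hold cytochrome b in complex III, had 60.7, 48 and 47.1 CPM in SPF 5xFAD and 105, 86.9, 96.2, 116 and 67.4 CPM in GF 5xFAD mice. *Sdhb* had 125.1, 107.2 and 120 CPM against 195.1, 198.7, 188.2, 181.3 and 162.1 CPM (0.66 ± 0.11, adjusted p = 0.00106). In both genes the lowest GF 5xFAD mouse was FAD_GF_201, and it still lay above all SPF 5xFAD mice.

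Here *Uqcrc1* and *Cyc1* of complex III were called as well. *Uqcrc1* had 197.5, 178.3 and 178.4 CPM in SPF 5xFAD and 244.8, 262.6, 269.9, 255.8 and 259.6 CPM in GF 5xFAD mice (0.49 ± 0.109, adjusted p = 0.00493). *Cyc1* had 91.5, 90.3 and 95 CPM against 127, 140, 130, 126 and 113 CPM (0.46 ± 0.114, adjusted p = 0.00845). *Uqcrc2*, at 0.34 ± 0.121, and *Uqcrfs1*, at 0.32 ± 0.122, were not called. The same comparison in WT mice gave 0.24 ± 0.0986 for *Uqcrc1* and 0.24 ± 0.103 for *Cyc1*, neither of them called (adjusted p = 0.201 and 0.218). In complex V *Atp5o* rose by 0.72 ± 0.159 (adjusted p = 0.00458), *Atp5b* by 0.4 ± 0.0804 (adjusted p = 0.00275) and *Atp5c1* by 0.39 ± 0.124 (adjusted p = 0.0335), and *Atp5a1*, at 0.2 ± 0.0819, was not called (adjusted p = 0.102).

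This comparison rests on 3 SPF 5xFAD mice, all of the second label style. Without FAD_SPF_1148 the count of called members was 7, with 3.41% of all genes called, and without FAD_SPF_1146 it was 9, with 4.31%. With a term for the style, which rests on FAD_ABX_1151 alone, it was 0, where 0% of all genes were called and the median log2 fold change was 0.138. Neutrophil markers summed to 56.1 to 225 CPM in the SPF and at most 0.0519 CPM in the GF 5xFAD mice. Astrocyte markers, mostly *Slc1a3*, were at 224 to 240 CPM of the library total in the SPF and 155 to 189 CPM in the GF 5xFAD mice. Endothelial markers were at 24.1 to 29.9 and 9.42 to 21.4 CPM. The part of these lists in the result was not tested.

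GF 5xFAD mice stood above ABX 5xFAD mice for 29 members, against 10.6% of all genes called and 6.07% called higher, with a median log2 fold change of 0.448. *Cox6a2* led again at 1.45 ± 0.21 (adjusted p = 0.000175) and without overlap between the groups. *Cox7b*, a membrane subunit of complex IV, had 60.8, 44.7, 52.7, 64.1 and 44.4 CPM in GF 5xFAD and 23.5 to 44.9 CPM in ABX 5xFAD mice, with a median of 31.9 (0.7 ± 0.146, adjusted p = 0.0034). *Cox4i1* rose by 0.7 ± 0.127 (adjusted p = 0.00123). Overlap was common, and for 4 members the groups were fully apart, against 1.79% of all genes. *Sdha* did not pass the test, at 0.06 ± 0.0639 (adjusted p = 0.582). Without FAD_ABX_1151 the count was 16, without FAD_GF_181 or FAD_GF_185 it was 17 or 18, and a fit of only the 2 groups called 4. Of all genes these fits called 6.39%, 7.09%, 7.6% and 1.89%. Border-associated macrophage markers summed to 32.2 to 247 CPM in ABX 5xFAD and 10.2 to 80.7 CPM in GF 5xFAD mice, and FAD_ABX_1151 also held 115 CPM of neutrophil markers. Astrocyte markers, mostly *Slc1a3*, were at 212 to 315 CPM of the library total in ABX and 155 to 189 CPM in GF 5xFAD mice. The part of these lists in the result was not tested.

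Whether the effect of the genotype itself differed between housing conditions was tested as an interaction. Between GF and ABX mice 6 members were called, against 1.76% of all genes called and 0.843% called higher, each with a larger 5xFAD effect in GF mice. They were *Cox6a2* (1.32 ± 0.348, adjusted p = 0.0457), *Cox7b* (1.12 ± 0.221, adjusted p = 0.0109), *Atp5k* (0.98 ± 0.262, adjusted p = 0.0488), *Uqcr10* (0.87 ± 0.224, adjusted p = 0.0452), *Atp5j* (0.83 ± 0.173, adjusted p = 0.0152) and *Cox7a2* (0.82 ± 0.207, adjusted p = 0.0417). *Cox7b* and *Atp5j*, a subunit of the peripheral stalk, held under all 39 alternative fits, and the other 4 lost their call in 17 to 28 of them. Leaving out 1 mouse moved the count by more than 1.5 times for 22 of the 28 mice. It was 13 without FAD_GF_201 or FAD_ABX_1455 and 10 without WT_ABX_932 or FAD_ABX_1482. It was 3 without WT_SPF_936, WT_ABX_909, FAD_GF_182 or FAD_ABX_1453, and 2 without WT_SPF_926, WT_GF_199, WT_GF_229, WT_GF_231, WT_ABX_910, WT_ABX_911, FAD_SPF_1146, FAD_SPF_1148, FAD_GF_181, FAD_GF_184, FAD_GF_185, FAD_ABX_1151, FAD_ABX_1452 or FAD_ABX_1460. The share of all genes called moved as well, to 3.24% without FAD_GF_201 and 1.96% without FAD_ABX_1151. Border-associated macrophage markers summed to at most 5.83 CPM in ABX WT and 32.2 to 247 CPM in ABX 5xFAD mice, and to 10.5 to 41.2 CPM in GF WT and 10.2 to 80.7 CPM in GF 5xFAD mice, and their part in the interaction was not tested. Between GF and SPF mice 0 members were called with edgeR, where 0% of all genes tested were called, and voomWithQualityWeights called 2 members and 0.758% of all genes. An unadjusted p under 0.05 was found there for 22 members, against 8.52% of all genes, and the lowest adjusted p was 0.386. With the label style term 0 members were under an unadjusted p of 0.05, against 4.2% of all genes. The median log2 fold change of this interaction was 0.454 in the main fit and 0.112 with that term. Between ABX and SPF mice 0 members were called with edgeR, with 0% of all genes called, and 2 were under an unadjusted p of 0.05, against 6.75% of all genes.

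Subunit genes are short, and the libraries of the GF 5xFAD mice held more reads of short genes. The mean length of the gene behind a read was 4374 to 4553 bases in GF 5xFAD and 4494 to 5128 bases in the other libraries. The 42 members had a median exon length of 1551 bases and the genes tested one of 3516. In GF 5xFAD against GF WT mice the median log2 fold change of all genes was 0.0889 under 1 kb, 0.114 at 1 to 2 kb and -0.0901 over 4 kb. With offsets that remove the trend of each library on gene length, 26 members were called there, against 14.8% of all genes, with a median of 0.499. *Cox6a1* was then at 1.04 and *Uqcr10* at 0.98. The 4 calls lost were *Sdhd* at 0.15, *Uqcrb* and *Atp5h* at 0.31 and *Cox5a* at 0.36 (adjusted p = 0.201, 0.136, 0.0688 and 0.0522). Against SPF 5xFAD mice 18 members were called with the offsets, against 9.42% of all genes, and the median was 0.378. Without the offsets all genes of 1 to 2 kb had a median of 0.234 in that comparison. The share of the length trend that is technical was not tested.

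**Figure D5:**
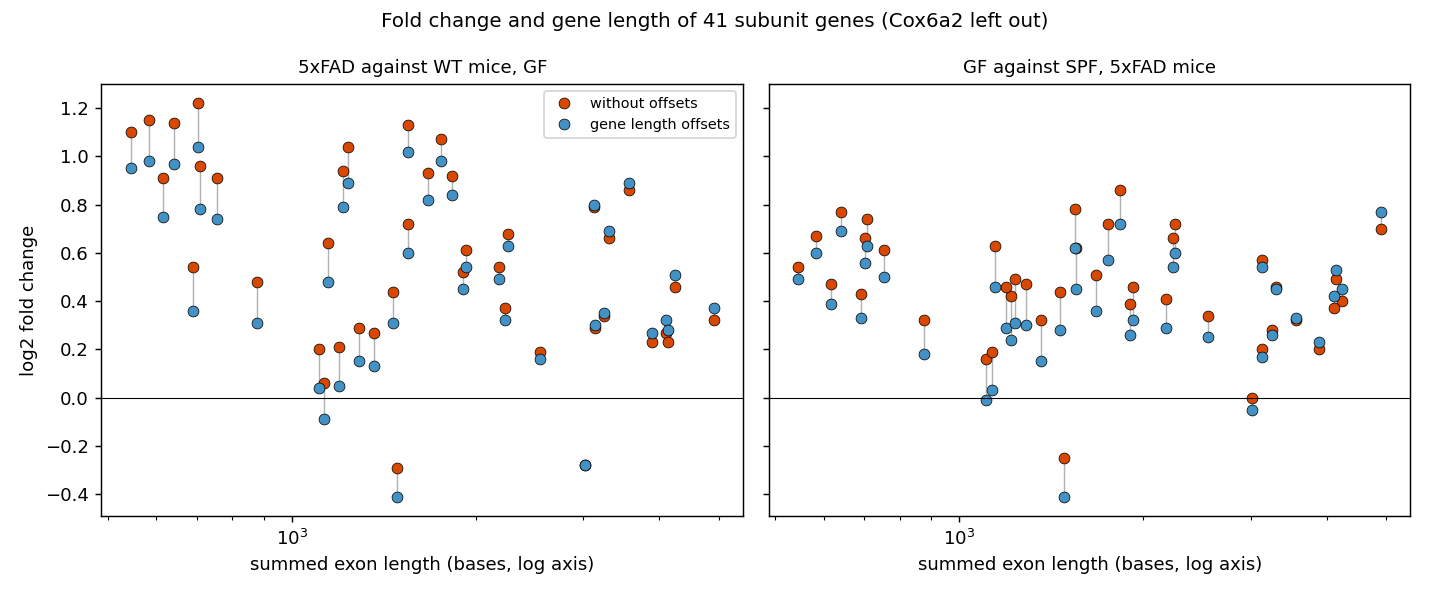
Log2 fold change (y axis) against summed exon length (x axis, log) of 41 subunit genes, without and with gene length offsets, joined by lines; *Cox6a2* is left out because it lies far above. In GF 5xFAD against GF WT mice (left) the offsets lower most genes under 2 kb, *Cox6a1* from 1.22 to 1.04, and in GF against SPF 5xFAD mice (right) they lower *Cyc1* and its neighbours in length.

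Other genes of the pathway were counted in the same fits, where 15.6% of all genes were called and 9.43% called higher in GF 5xFAD against GF WT mice. In that comparison 27 of 37 complex I subunit genes were called, all higher, with a median log2 fold change of 0.578, led by *Ndufa1* at 2.05 ± 0.198 (adjusted p = 7.87e-09). All 7 mitochondrially encoded subunits that passed the filter, of 13, were higher as well, at 0.94 to 1.15, from a GF WT level that was itself below that of ABX WT mice for 7 of 7. Of 33 assembly factors of complexes II to V that were tested 4 were higher, a share near that of all genes, with a median of 0.0905. Of 14 citric acid cycle enzymes 4 were higher and 1, *Idh2*, was lower. None of 8 regulators of mitochondrial biogenesis was called with edgeR, with 1 under an unadjusted p of 0.05, a share below that of all genes. Of 77 cytosolic ribosomal protein genes, which are no part of the respiratory chain, 48 were higher, with a median of 0.79.

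Mitochondrially encoded subunits differed between housing conditions in WT mice, where the nuclear medians were near 0. In GF against ABX WT mice 7 of 7 were called lower, as were 367 of all 15298 genes, with a median log2 fold change of -0.939 beside -0.0701 for the 42 nuclear genes, a median that ran from -0.11 to -0.0185 with 1 mouse left out. In GF against SPF WT mice 1 was called lower, where 1.62% of all genes were called, and all 7 were negative with an unadjusted p under 0.05, against 16.6% of all genes, with a median of -0.638 beside 0.0248. In GF against SPF 5xFAD mice 0 of 7 were called with edgeR, 2 were under an unadjusted p of 0.05, as were 4104 of the 15298 genes, and all 7 log2 fold changes were negative, from -0.53 to -0.27, beside the median of 0.466 of the nuclear genes. ABX against SPF 5xFAD mice also had 0 of 7 called and all 7 negative, from -0.69 to -0.41, with all 7 under an unadjusted p of 0.05, against 7.09% of all genes. In GF against ABX 5xFAD mice 0 of 7 were called and all 7 were positive, at 0.03 to 0.25. In SPF 5xFAD against SPF WT mice 5 of 7 were higher, against 3.73% of all genes, with a median of 0.734, where the nuclear genes had a median of 0.116. These comparisons share groups of mice, and a difference between the nuclear and mitochondrial genes was not tested. Of 37 complex I genes 22 were called higher in GF against SPF 5xFAD mice, against 6.97% of all genes, and 28 in GF against ABX 5xFAD mice, against 6.07%.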

How the data were processed

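RNA of sorted hippocampal microglia from 28 mice was sequenced with SMARTer v4 and Nextera XT libraries, which do not keep strand, as 50 base single reads. The authors mapped the reads to GRCm38 with STAR (2.7.2) and deposited unnormalised read counts per Gencode M21 gene from featureCounts (1.6.2). The labels give a human build, which the mouse gene identifiers do not match. The deposited table also gives summed exon lengths. 92 spike-in entries, with at most 12 reads in a library, were left out.

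Genes were filtered with filterByExpr (minimum count 10) and scaled by TMM, and all 6 groups were fitted in 1 model with edgeR's quasi-likelihood test (edgeR 4.0.16, R 4.3.3). This differs from the study's voomWithQualityWeights fit (limma), which was an alternative, as was DESeq2 (1.42.0). CPM are TMM-scaled, and log2 CPM has a prior count of 2. All of the 12 comparisons come from this fit. The fits were tested on simulated data. Motifs were matched exactly on both strands.

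The members and lists were chosen with earlier results of these data known. Named genes were the catalytic or core subunits of each complex, isoform sets, the 3 called members with the largest change per comparison, and the extremes of level. Members outside this rule were chosen after their values were seen. *Scaf1* was dropped from a list of supercomplex factors because that symbol belongs to another gene. Alternatives covered scaling, filters, gene length, GC content, test, samples and label style.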

Additional observations from a re-analysis of the deposited data

Results flagged for a closer look

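Of 130 checks of a group's highest or lowest mouse, 5 were far from the rest, or 3.85%, where chance gives about 1 in 20. FAD_ABX_1151 had a complex II mean of 6.75 log2 CPM, with the other ABX 5xFAD mice at 7.04 to 7.14. WT_GF_199 had a complex V mean of 5.27 log2 CPM, with the other GF WT mice at 5.46 to 5.47. *Uqcrc1* was low in WT_ABX_911, at 152 CPM against 179 to 186 CPM. *Atp5a1* was high in FAD_ABX_1460, at 424 CPM against 332 to 364 CPM. *Cox6a2* was high in WT_SPF_928 for a WT mouse, at 1.98 CPM against 0.979 to 1.23 CPM, and stayed below every 5xFAD mouse.

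The 5xFAD effect differed between GF and ABX mice by edgeR's interaction test for 6 members, against 1.76% of all genes called and 0.843% called higher. The differences in log2 fold change were 1.32 for *Cox6a2*, 1.12 for *Cox7b*, 0.98 for *Atp5k*, 0.87 for *Uqcr10*, 0.83 for *Atp5j* and 0.82 for *Cox7a2*, each larger in GF mice. All but *Cox7b* and *Atp5j* lost their call in some of the alternative fits, as given above.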

How the results depend on the processing

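Of 3783 values of the 97 called member results over 39 alternative fits each, 3314 kept their direction and side of the threshold, 469 lost the threshold and 0 reversed. Counts of called members moved as follows, and the cause was not tested. With voomWithQualityWeights they were 7 for the genotype in SPF mice, 34 for GF against SPF 5xFAD, 5 for GF against SPF WT and 2 for the GF minus SPF interaction, where 14.1%, 25.3%, 10.7% and 0.758% of all genes were called. A fit of only the groups compared gave 7 for the genotype in SPF mice, 1 for GF against SPF WT, 4 for GF against ABX 5xFAD and 2 for the GF minus ABX interaction, with 9.71%, 9.6%, 1.89% and 0.47% of all genes. The label style term gave 12 for the genotype in ABX mice, 0 for GF against SPF 5xFAD, 19 for GF against ABX 5xFAD and 3 for the GF minus ABX interaction, with 17.7%, 0%, 6.48% and 1.94% of all genes. That interaction also gave 3 with library size alone, no filter or length offsets, with 1.82%, 0.789% and 1.42% of all genes called. It gave 11 with at least 10 reads in every library and 12 with DESeq2, with 2.91% and 4.36% of all genes. GF against ABX WT gave 0 with library size alone, no filter, length offsets or GC offsets, with 6.45%, 2.72%, 7.94% and 1.66% of all genes. Leaving out 1 mouse gave 1 to 3 members for the genotype in SPF, 23 to 31 in GF and 5 to 12 in ABX mice, 7 to 26 for GF against SPF 5xFAD, 16 to 34 for GF against ABX 5xFAD, 0 to 2 for GF against ABX WT and 2 to 13 for the GF minus ABX interaction. The share of all genes called moved in these fits too. Without FAD_ABX_1151 it was 17.7% for the genotype in ABX mice, with 12 members, and 6.39% for GF against ABX 5xFAD, with 16. Without FAD_GF_201 it was 18.1% for the genotype in GF mice, with 31 members, and 3.24% for the GF minus ABX interaction, with 13. Library size alone moved the all-gene median of the genotype comparison in GF mice from -0.0255 to -0.15 and called 1442 higher and 949 lower genes as 1107 and 1919. It also called 1 member lower in each of 3 comparisons, *Atp5sl*, *Cox7c* and *Atp5s*. *Atp5s* was lower in GF than ABX 5xFAD mice under 4 alternatives, at -0.51 to -0.4. A CPM minimum of 0.1 gave 44 members and one of 5 gave 39. No paired analysis was possible because the replicate numbers are those of single mice and no number is shared between groups.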
